A study of Homo sapiens with 8 samples.

Results

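The 2 libraries of HepG2 cells treated with compound 6 were compared directly with the 2 libraries treated with compound 5, so that 4 of the 8 RNA sequencing libraries in the study entered the comparison. HepG2 cells come from a human liver cancer, and the cells of every group overexpressed CYP2C19, a drug-metabolizing cytochrome P450, and grew under blasticidin. The libraries were chosen by their treatment labels, "cyclohexil" for compound 6 and "tetrabut" for compound 5, and 2 libraries of cells given only the solvent, DMSO, served to show which compound had moved a gene. The remaining 2 libraries, of cells treated with compound 4, entered the fit only as part of the shared estimate of spread. Treatment lasted 24 h, and each compound was given at its own IC50, taken from a viability assay, so the concentrations of the compounds were close but not equal, and a difference between them cannot be told apart from that small difference in dose. In the labels, replicates are numbered as day 1 and day 2, here replicates 1 and 2. Nothing in the labels says whether they were separate cultures, so the p-values rest on the spread between replicates over all 8 libraries, which may be technical. The column names of DMSO replicate 1 and compound 4 replicate 1 hold the word "merged", and those of the compound 5 and compound 6 libraries do not. All groups came from a single engineered line, and no parental line was compared.

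Both compounds are phenolic antioxidants added to plastic, with a pair of phenol rings joined through a single bridging carbon. In compound 5 the bridge carries a methyl group, and tert-butyl groups sit beside and opposite each hydroxyl. In compound 6 the bridge is a plain methylene, cyclohexyl groups sit beside the hydroxyls and methyl groups opposite them. Hepatocyte-derived cells such as HepG2 make cholesterol and fatty acids under the control of SREBP transcription factors, secrete plasma proteins through the endoplasmic reticulum and Golgi, and handle bile acids under the nuclear receptor FXR. The results are ordered by these pathways.

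The libraries carried the markers of the labelled line. The 10 hepatocyte markers, albumin among them, were all detected and summed to between 37734 and 54716 CPM (counts scaled to a common library size) in the DMSO, compound 5 and compound 6 libraries. Of 7 fibroblast markers 4 were at 0 in all these libraries, and the sum was between 5.11 and 14.6 CPM. Of 6 endothelial markers 3 were at 0, and the sum was at most 2.08 CPM. Of 7 immune cell markers 2 were at 0, and the sum of 1604 to 2194 CPM was almost all lysozyme (LYZ), which lay at 1753 and 1602 CPM with compound 5 and 1863 and 1570.1 CPM with compound 6. CYP2C19 itself was at 27.7 and 16.4 CPM with DMSO, 52.8 and 38 CPM with compound 5 and 23.9 and 21.2 CPM with compound 6. The compound 6 libraries lay below both compound 5 libraries, but the log2 difference of −1.002 ± 0.26 (SE) did not pass the test (adjusted p = 0.0907).

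Total counts were 12863644 and 17814595 in the compound 5 libraries, 10112250 and 10368600 in the compound 6 libraries, and 9791659 and 11444500 in the DMSO libraries. Over the 13400 genes that passed the filter on low counts, the replicates of compound 5 differed by a root mean square of 0.377 on the log2 scale, and so did those of compound 6. The 4 pairs of a compound 5 with a compound 6 library differed by 0.420 to 0.494.

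Compound 6 differed from compound 5 in 138 of the 13400 genes tested, or 1.03%, at an adjusted p under 0.05. Unless another test is named, p-values come from the quasi-likelihood test of edgeR and were adjusted with the Benjamini-Hochberg method, and log2 differences are compound 6 minus compound 5, ± their standard error. Of these genes 68 (0.507% of those tested) were higher with compound 6 and 70 (0.522%) were lower. The lower genes were mostly abundant and moved moderately, with a median log2 difference of −0.76 and a median level of 128 CPM. The higher genes had a median log2 difference of 1.10 and a median level of 23.4 CPM, against 24.0 CPM for all genes tested. In all 138 genes the libraries of one compound lay wholly above those of the other, which held for 49.4% of all genes tested (25.1% with compound 6 above and 24.3% with compound 6 below). At an unadjusted p under 0.05, 2483 genes (18.5%) differed. With the replicate number as a block in the fit, 269 genes were called, including all 138, with 139 higher and 130 lower.

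The calls leaned on the small number of libraries. Without compound 6 replicate 1, no gene was called by edgeR's quasi-likelihood test, although 1285 had an unadjusted p under 0.05, and the lowest adjusted p was 0.0853. Every call below is lost without that library. Without compound 6 replicate 2, 25 genes were called (21 of them among the 138), without compound 5 replicate 1, 37 (35), without compound 5 replicate 2, 102 (60), and without either DMSO library, 60 (58). All 138 genes kept their direction in each of these settings, and 11 genes lost their call in none of the other alternatives that tested them: KNG1, SLC51A, SLC51B, HS6ST1, BHLHA15, SELENOS, SEC61A1, HMGCS1, BCAM, ABCC3 and SRCIN1. KNG1 had too few counts to be tested where at least 10 counts were required in every sample, a filter that kept 135 of the 138 genes.

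**Figure D1:**
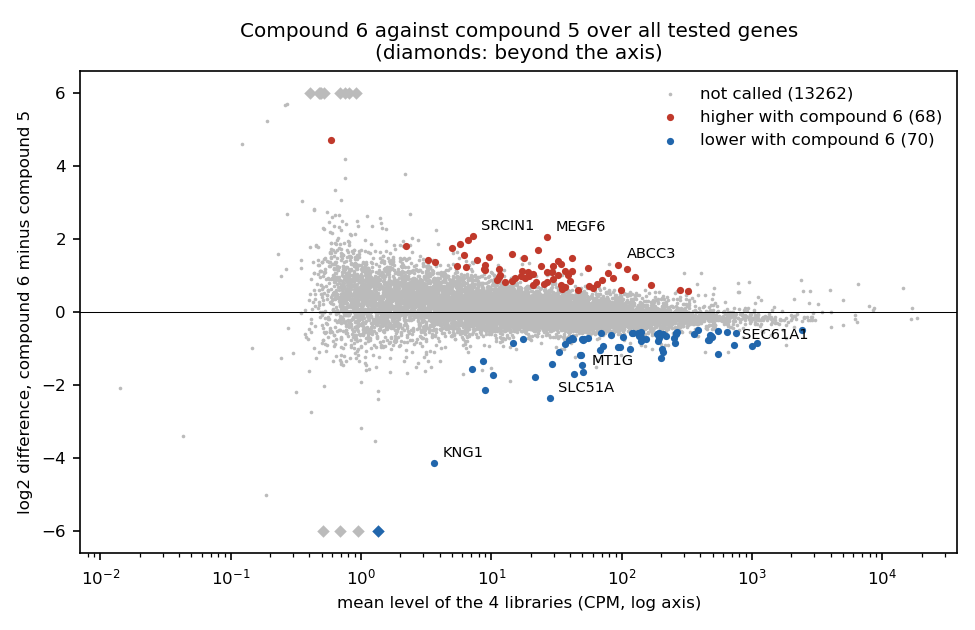
Mean level of each tested gene over the compound 5 and compound 6 libraries (CPM, log axis) against its log2 difference, compound 6 minus compound 5, with the 68 called genes that were higher with compound 6 in red, the 70 lower ones in blue and the others in grey. The blue genes lie further to the right, with a median of 128 CPM against 23.4 CPM for the red ones, and KNG1 at −4.13 stands below the other named genes.

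The DMSO libraries showed on which side the called genes had moved. Compound 5 differed from DMSO in 1112 genes (8.3%) and compound 6 in 77 (0.575%). Whole libraries were less clearly ordered. In root mean square log2 difference, compound 5 replicate 1 lay 0.579 and 0.618 from DMSO replicates 1 and 2, and its replicate 2 lay 0.458 and 0.444 from them. Compound 6 replicate 1 lay 0.398 and 0.470 from them and its replicate 2 lay 0.492 and 0.523, farther than compound 5 replicate 2. Of the 70 genes lower with compound 6, 59 were called for compound 5 against DMSO, each of them raised, 1 was called for compound 6 only, and 10 for neither. In 65 of these 70 genes compound 6 lay nearer to DMSO than compound 5 did. Their median log2 difference from DMSO was 0.68 with compound 5 and −0.06 with compound 6. Of the 68 genes higher with compound 6, 44 were called against DMSO for compound 5 only, 7 for compound 6 only, 2 for both and 15 for neither. Their medians were −0.80 with compound 5 and 0.26 with compound 6, and compound 6 lay nearer to DMSO in 50 of them. Over all called genes compound 6 was the nearer one in 83.3%, against 59.1% of all genes tested. Both differences from DMSO use the same DMSO libraries, so they are given side by side and not as independent measurements.

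**Figure D2:**
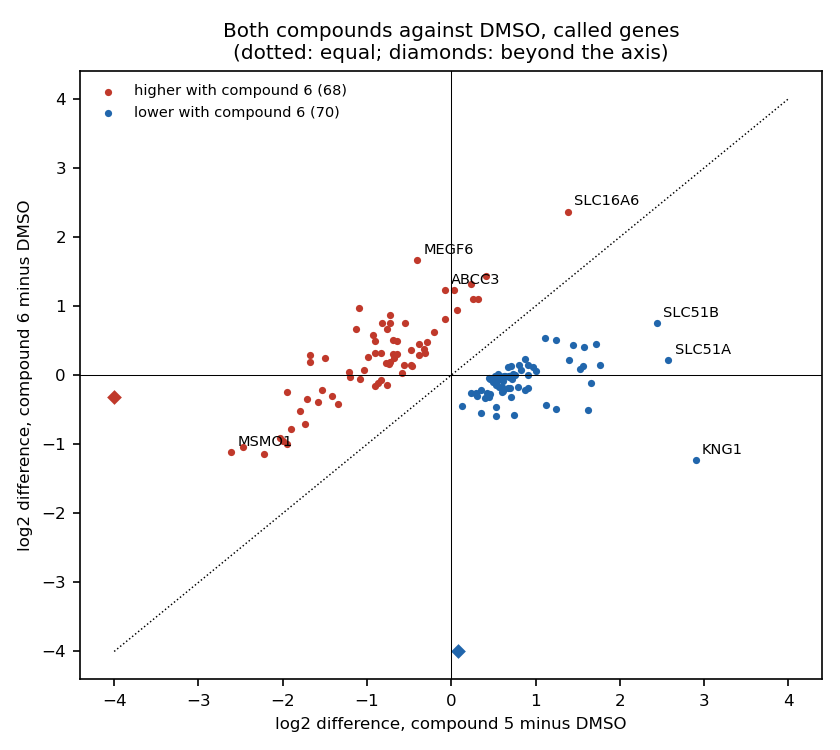
Log2 difference from DMSO of the 138 called genes, with compound 5 on the x axis and compound 6 on the y axis. Points above the dotted line of equal values were higher with compound 6 (red, 68 genes) and points below it lower (blue, 70 genes), diamonds mark genes beyond the axis, and the blue points cluster along the zero of the y axis, with a median of −0.06.

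Several enzymes of cholesterol synthesis were higher with compound 6 than with compound 5 and below DMSO with either. Cholesterol is built from acetyl-CoA through mevalonate, squalene and lanosterol, and its enzymes are targets of SREBP2. Of 20 enzymes tested, 6 were higher with compound 6 (0.507% of all genes tested) and 0 lower (0.522%). In 17 both compound 6 libraries lay above both compound 5 libraries, as in 25.1% of all genes tested. The median log2 difference over the list was 0.55, beside −0.005 over all genes tested. Against DMSO the median was −1.54 with compound 5, with 19 enzymes called lower, and −0.91 with compound 6, with 6 called lower. Of all 13400 genes tested, 395 were called lower than DMSO with compound 5 and 11 with compound 6.

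HMGCS1 (chr5:43289395-43313512, minus strand, GRCh38 with GENCODE 29, as for all gene positions given) makes HMG-CoA at the entry to the mevalonate pathway. It was at 247 and 222 CPM with DMSO, 46 and 54.2 CPM with compound 5 and 109.6 and 103 CPM with compound 6. Its log2 difference between the compounds was 1.08 ± 0.13 (adjusted p = 0.0104), and it lay below DMSO with either compound (log2 differences −2.22 and −1.14). MSMO1, the sterol C4-methyl oxidase, was at 138 and 128 CPM with DMSO, 17 and 26.1 CPM with compound 5 and 65.4 and 57.4 CPM with compound 6, a log2 difference of 1.501 ± 0.23 (adjusted p = 0.0209). It was the largest difference in the list, and the 3 groups did not overlap.

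IDI1, the isomerase of the isoprenoid building blocks, was at 18.9 and 26.7 CPM with compound 5 and 47.1 and 53.4 CPM with compound 6 (log2 difference 1.13 ± 0.18, adjusted p = 0.0241). LSS, which closes the rings to form lanosterol, was at 20.4 and 31.9 CPM and 57.5 and 57.4 CPM, respectively (log2 difference 1.12 ± 0.18, adjusted p = 0.0241). The squalene synthase FDFT1 and the sterol reductase TM7SF2 were the other called enzymes, with log2 differences of 0.96 and 1.05 (adjusted p = 0.0453 and 0.0457). TM7SF2 overlaps VPS51 on the same strand, so its counts are uncertain.

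Not every enzyme followed. EBP, the sterol isomerase, had a log2 difference of −0.01 (95% interval −0.37 to 0.35). The list median ranged from 0.40 without compound 5 replicate 1 to 0.83 without compound 5 replicate 2. Without compound 5 replicate 1 the list held 1 call, without compound 6 replicate 2 also 1, without DMSO replicate 1 or 2 there were 1 and 2, and without compound 6 replicate 1 there were 0.

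Among genes of fatty acid synthesis and the other SREBP targets, 3 of 18 tested were higher with compound 6 (0.507% of all genes tested) and 0 lower (0.522%), at a median log2 difference of 0.40. Without compound 5 replicate 1 or compound 6 replicate 2 the list held 0 calls, without compound 5 replicate 2 it held 6, and without either DMSO library 1. STARD4, a carrier of cholesterol between membranes, was at 46.4 and 51.8 CPM with DMSO, 16.4 and 20.4 CPM with compound 5 and 41.1 and 38.5 CPM with compound 6 (log2 difference 1.11 ± 0.15, adjusted p = 0.0123). ACSS2, which makes acetyl-CoA from acetate, was at 18.9 and 23.5 CPM with compound 5 and 48.4 and 38.2 CPM with compound 6 (log2 difference 1.02 ± 0.17, adjusted p = 0.0285). ELOVL6, a fatty acid elongase, was at 10.3 and 14.6 CPM and 23.8 and 24.1 CPM, respectively (log2 difference 0.93 ± 0.17, adjusted p = 0.0397). In these genes the compound 6 libraries lay between compound 5 and DMSO. The stearoyl-CoA desaturase SCD, the most abundant gene of the list, was at 1958 and 1819.5 CPM with DMSO, 604 and 745 CPM with compound 5 and 1335 and 1084 CPM with compound 6. Its log2 difference of 0.84 ± 0.17 stood at an adjusted p of 0.0526, and at 0.0442 with the replicate block.

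Among genes of triglyceride synthesis and storage, a list added after the data had been seen, 3 of 17 tested genes were higher with compound 6 and 0 lower. The shares of all genes tested were 0.507% and 0.522%, and the list median was 0.10 (−0.04 without compound 6 replicate 1). Without compound 5 replicate 1 the list held 1 higher gene, without compound 6 replicate 2 it held 0, and the block added 1 lower gene. DGAT2, which adds the last acyl chain to a triglyceride, was at 39 and 44 CPM with DMSO, 8.07 and 13.2 CPM with compound 5 and 33.5 and 37 CPM with compound 6. The log2 difference was 1.71 ± 0.22 (adjusted p = 0.0113), and compound 6 lay close to DMSO (log2 difference −0.24, adjusted p = 0.568). ANGPTL8, a secreted regulator of lipoprotein lipase, was at 12.5 and 15.5 CPM with compound 5 and 35.2 and 32.2 CPM with compound 6 (log2 difference 1.26 ± 0.18, adjusted p = 0.0146). The acyltransferase MOGAT3 had a log2 difference of 0.93 (adjusted p = 0.0385). PLIN2, the coat protein of lipid droplets, had a value of the opposite sign, at 1207 and 901 CPM with compound 5 and 629 and 688 CPM with compound 6. Its log2 difference of −0.68 ± 0.15 missed the threshold (adjusted p = 0.0657) and passed it with the replicate block (adjusted p = 0.0408).

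NPC1L1, the transporter that takes up free cholesterol and a gene named after its values had been seen, was at 57.5 and 55.6 CPM with DMSO, 14.1 and 24.7 CPM with compound 5 and 53.5 and 44.1 CPM with compound 6 (log2 difference 1.31 ± 0.25, adjusted p = 0.0427). MYLIP, an LXR target that marks the LDL receptor for degradation, was at 5.23 and 5.69 CPM with DMSO, 2.96 and 3.19 CPM with compound 5 and 9.32 and 9.10 CPM with compound 6 (log2 difference 1.57 ± 0.21, adjusted p = 0.0114). Here compound 5 lay below DMSO and compound 6 above it. MYLIP was the 1 called gene of 9 sterol efflux and LXR targets tested, whose median log2 difference was 0.47, with 3 called under the replicate block and 0 without compound 5 replicate 1 or compound 6 replicate 2. Apolipoprotein E (APOE), the most abundant of them, had a log2 difference of −0.16 (95% interval −0.45 to 0.14).

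Of the 70 genes lower with compound 6, 15 belong to 4 lists for the machinery by which proteins enter and leave the endoplasmic reticulum, and 0 of the 79 tested genes in these lists were higher. The shares of all genes tested were 0.522% lower and 0.507% higher. Proteins bound for secretion are threaded through the SEC61 channel, glycosylated by the oligosaccharyltransferase, folded by chaperones and carried to the Golgi in COPII vesicles, from which COPI vesicles return. The lists for translocation, glycosylation and vesicles were added after the data had been seen, so their counts are descriptions. Of 26 translocation genes tested, 7 were lower with compound 6 and 0 higher (median log2 difference −0.48). Of 12 oligosaccharyltransferase genes 2 were lower (median −0.32), and of 22 vesicle genes 4 were lower (median −0.39), with 0 higher in either list. Of 19 chaperone genes 2 were lower and 0 higher (median −0.43), and 7 were lower with the replicate block, which gave 11 for translocation. Without compound 5 replicate 1 the translocation, glycosylation, vesicle and chaperone lists held 2, 0, 1 and 1 calls, without compound 6 replicate 2 they held 1, 0, 0 and 0, and without either DMSO library 4, 1, 1 and 1. Without compound 5 replicate 2, 5 chaperone genes were called. In 21 of the 26 translocation genes and 21 of the 22 vesicle genes both compound 6 libraries lay below both compound 5 libraries, as in 24.3% of all genes tested.

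SEC61A1 (chr3:128051641-128071683, plus strand), the pore of the channel, was at 556 and 608 CPM with DMSO, 942 and 947 CPM with compound 5 and 496 and 524 CPM with compound 6. The log2 difference was −0.89 ± 0.10 (adjusted p = 0.00714), with compound 5 raised from DMSO (log2 difference 0.70, adjusted p = 0.00559) and compound 6 at −0.19 from it (adjusted p = 0.313). The same order was seen for the signal peptide peptidase HM13, at 341 and 347 CPM with DMSO, 591 and 569.96 CPM with compound 5 and 325 and 362 CPM with compound 6 (log2 difference −0.76 ± 0.10, adjusted p = 0.0113). SSR2, a subunit of the translocon-associated complex, was at 156 and 158 CPM, 232 and 249.7 CPM and 145 and 149.98 CPM in the same order of groups (log2 difference −0.71 ± 0.10, adjusted p = 0.0117). HM13 overlaps MCTS2 on the same strand.

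SRPRB, a subunit of the receptor for the signal recognition particle, had a log2 difference of −0.79 ± 0.12 (adjusted p = 0.0191) but overlaps the transferrin gene TF on the same strand. TRAM1, SPCS2 of the signal peptidase and SSR1 completed the called genes of this list, with log2 differences of −0.71, −0.68 and −0.64 and adjusted p-values of 0.0422, 0.0293 and 0.0397. The small subunits of the signal recognition particle had values near 0. SRP14 had a log2 difference of −0.02 (95% interval −0.31 to 0.26) and SRP9 of −0.09 (−0.46 to 0.28), and both overlapped between the compounds.

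For glycosylation, the called genes were RPN1 and the catalytic subunit STT3A. RPN1 was at 413 and 419 CPM with DMSO, 599 and 605 CPM with compound 5 and 370.4 and 381 CPM with compound 6 (log2 difference −0.68 ± 0.09, adjusted p = 0.0114). STT3A, which overlaps CHEK1 on the same strand, had a log2 difference of −0.60 ± 0.10 (adjusted p = 0.0311). In the vesicles, the cargo receptor SURF4 was at 416 and 450.3 CPM with DMSO, 592 and 584 CPM with compound 5 and 347 and 346 CPM with compound 6 (log2 difference −0.76 ± 0.09, adjusted p = 0.0104). The COPII coat subunit SEC24D, the COPI subunit COPE and the cargo receptor TMED10 had log2 differences of −0.64, −0.60 and −0.55 (adjusted p = 0.0458, 0.0254 and 0.0337).

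Among the chaperones, DNAJB9, a cochaperone of BiP, was at 22 and 23.2 CPM with DMSO, 78.3 and 57.4 CPM with compound 5 and 29.5 and 30.8 CPM with compound 6 (log2 difference −1.17 ± 0.15, adjusted p = 0.0114). PDIA4, a disulfide isomerase, was at 768 and 859.8 CPM, 844 and 942 CPM and 613 and 588 CPM (log2 difference −0.57 ± 0.11, adjusted p = 0.0451). For PDIA4 neither compound differed from DMSO by the test (log2 differences 0.13 and −0.44, adjusted p = 0.444 and 0.0882). XBP1, the transcription factor of the unfolded protein response whose messenger is spliced when the pathway is on, had the highest value of the list, at 195 and 202 CPM with compound 5 and 235 and 224 CPM with compound 6. That log2 difference of 0.21 (95% interval −0.04 to 0.45) did not pass the test, and gene counts do not separate its spliced form. The chaperone calnexin (CANX) was at 2143 and 1865 CPM and 1456 and 1407 CPM, with an adjusted p of 0.0526 and of 0.0249 with the block.

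Further called genes that were lower with compound 6, outside the lists, were named after their values had been seen. BHLHA15, a transcription factor of secretory cells, was at 23.3 and 27.4 CPM with DMSO, 63.8 and 69.7 CPM with compound 5 and 25.2 and 33.6 CPM with compound 6 (log2 difference −1.18 ± 0.16, adjusted p = 0.0114). SELENOS and SELENOK, selenoproteins of the degradation pathway for misfolded proteins, had log2 differences of −0.91 and −0.86 (adjusted p = 0.0113 and 0.0191). The ribosome-binding protein RRBP1 was at 1426 and 1378 CPM with compound 5 and 806 and 756 CPM with compound 6 (log2 difference −0.84 ± 0.09, adjusted p = 0.00956). MYDGF, a secreted growth factor, and the prolyl isomerase FKBP14 had log2 differences of −0.84 and −0.96 (adjusted p = 0.0104 and 0.0104). P4HB, the most abundant disulfide isomerase gene among the calls, was at 2744 and 2944 CPM and 2075 and 1960.4 CPM (log2 difference −0.50 ± 0.10, adjusted p = 0.0453).

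Promoters of these genes were examined because genes of the secretory pathway share known elements. The windows were 250 bases before to 50 after the RefSeq start (GRCh38.p14), which were found for 48 of the 68 higher genes, 48 of the 70 lower genes and 10033 of the genes tested. The letters GACGTG, the core bound by XBP1 and related factors, were searched on both strands. They occurred in 27.1% of the windows of genes lower with compound 6 (13 of 48), in 2.08% of those of genes higher with compound 6 (1 of 48) and in 10.8% of all windows. In the translocation list they occurred in 9 of 22 windows and in the vesicle list in 13 of 20. The CCAAT box (CCAAT), for comparison, was in 24 of the 48 lower windows, 18 of the 48 higher windows and 37.2% of all windows, and the E-box (CACGTG), which shares the letters ACGTG with the core, in 16.7%, 6.25% and 10.4%. The full ER stress response element (CCAAT, 9 bases, CCACG) was in 0 windows of called genes and 14 of all. A sterol regulatory element, searched as TCAC, 1 base and CCAC, was likewise in 0 windows of called genes and in 1.11% of all. It was also in 0 of 15 windows of the cholesterol synthesis list, so this exact search cannot tell whether a gene lacks the element. The matches are a description of the letters and not evidence of binding. The stretches around the match in 3 of the called genes are shown, 5′ to 3′ on the strand of the gene, with the core or its reverse complement in capitals. They lie at chr6:7313260-7313305 (minus strand) for SSR1, chr11:74949129-74949174 (plus strand) for SPCS2 and chr19:4670390-4670435 (minus strand) for MYDGF, and the matches begin 86, 117 and 73 bases before the start.
SSR1: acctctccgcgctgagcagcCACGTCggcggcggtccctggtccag
SPCS2: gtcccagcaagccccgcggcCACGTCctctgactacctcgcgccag
MYDGF: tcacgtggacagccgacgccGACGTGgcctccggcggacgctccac

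The metallothioneins, small proteins that bind zinc and copper and are induced by metals, were above DMSO with compound 5, and several of them were within its range or close to it with compound 6. Of 11 genes of metallothioneins and metal transport tested, 4 were lower with compound 6 and 0 higher, at a median log2 difference of −0.67. Among all genes tested, 0.522% were lower and 0.507% higher. With the replicate block 6 were lower and 1 was higher, without compound 5 replicate 2 none was called, and without compound 5 replicate 1 or either DMSO library 2 were. MT1G was at 20.9 and 24.2 CPM with DMSO, 65.4 and 88 CPM with compound 5 and 19.3 and 30.6 CPM with compound 6 (log2 difference −1.62 ± 0.24, adjusted p = 0.0158). MT1X was at 9.43 and 11.6 CPM, 30.1 and 36.4 CPM and 6.38 and 13 CPM (log2 difference −1.78 ± 0.30, adjusted p = 0.0293), and MT1F had a log2 difference of −1.43 ± 0.21 (adjusted p = 0.0169). In each of the 3 genes the compound 6 and DMSO libraries overlapped.

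The zinc exporter SLC30A1 was at 72.1 and 71.6 CPM with DMSO, 130.2 and 122 CPM with compound 5 and 72.5 and 86.3 CPM with compound 6 (log2 difference −0.67 ± 0.12, adjusted p = 0.0363). MT2A, which passed the test against DMSO for both compounds, was at 38.3 and 40.03 CPM with DMSO, 184 and 182 CPM with compound 5 and 74.7 and 123 CPM with compound 6. Between the compounds it missed the threshold (log2 difference −0.89 ± 0.21, adjusted p = 0.0743). The MT1 genes are close paralogs that share reads, so the split of counts between them is uncertain. The zinc importer SLC39A10 had the highest value of the list (0.81, adjusted p = 0.166, and 0.0290 with the block).

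The metal response element, searched as TGCNCNC on both strands, was in 63.3% of all windows, so a single match says little. It was in 68.8% of the windows of lower genes and 58.3% of those of higher genes. The MT1X window held 4 matches, as did that of the called gene LARP1B. How many of all windows hold as many was not counted. The MT1X matches lie in chr16:56682300-56682443 on the plus strand. They begin 150, 122, 78 and 53 bases before the start, with each match in capitals.
MT1X: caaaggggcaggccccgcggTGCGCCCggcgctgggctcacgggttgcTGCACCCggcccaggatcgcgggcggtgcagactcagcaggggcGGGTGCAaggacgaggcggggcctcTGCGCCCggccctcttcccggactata

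KNG1 and SLC51A, from a list of bile acid and FXR genes, had the largest decreases among the genes named by rule. For the counts of this list, the shares of all genes tested were 0.522% called lower with compound 6 and 0.507% called higher. Bile acids bind the nuclear receptor FXR, which raises the exporter SLC51A-SLC51B and the repressor NR0B2 in liver cells. Of 17 such genes tested, a list added after the data had been seen, 5 were lower with compound 6 and 1 was higher, at a median log2 difference of −0.23, and 3 were lower without either compound 5 library or compound 6 replicate 2. KNG1 (chr3:186717276-186744410, plus strand), the precursor of bradykinin and a known FXR target, was at 0.717 and 1.09 CPM with DMSO, 6.34 and 7.45 CPM with compound 5 and 0.392 and 0.379 CPM with compound 6. This was 17.5-fold less with compound 6 than with compound 5 (log2 difference −4.13 ± 0.39, adjusted p = 0.00394), at a level of only a few counts in the compound 6 libraries. SLC51A was at 7.69 and 8.12 CPM, 45.2 and 49.2 CPM and 10.4 and 8.05 CPM (chr3:196211487-196243178, plus strand), 5.12-fold less with compound 6 (log2 difference −2.36 ± 0.20, adjusted p = 0.00394). Its partner SLC51B was at 10.4 and 13.6 CPM, 57.2 and 73.3 CPM and 16.8 and 23.9 CPM (log2 difference −1.68 ± 0.20, adjusted p = 0.0104).

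NR0B2, which represses bile acid synthesis, was at 69.6 and 62.7 CPM with DMSO, 146 and 141 CPM with compound 5 and 92.6 and 99.6 CPM with compound 6, so that compound 6 lay between the others (log2 difference −0.58 ± 0.10, adjusted p = 0.0366). The glucuronosyltransferase UGT2B4, which shares reads with close paralogs, was at 11.7 and 12.9 CPM with compound 5 and 4.91 and 4.93 CPM with compound 6 (log2 difference −1.32 ± 0.19, adjusted p = 0.0158). The receptor gene itself, NR1H4, was at 21.4 and 23.2 CPM and 24.4 and 26 CPM, and its log2 difference was 0.18 (95% interval −0.18 to 0.53). ABCC3 was higher with compound 6, at 63 and 51.2 CPM with DMSO, 56.6 and 52 CPM with compound 5 and 133 and 135 CPM with compound 6 (log2 difference 1.31 ± 0.12, adjusted p = 0.00394). It is one of the genes that compound 6 moved from DMSO (log2 difference 1.24, adjusted p = 0.00678) while compound 5 did not by the test (−0.07, adjusted p = 0.724). ABCC2 was raised from DMSO by both and differed by −0.14 between them (95% interval −0.43 to 0.15).

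ITIH3, a hyaluronan-binding plasma protein, was at 98.2 and 72.5 CPM with DMSO, 315 and 247 CPM with compound 5 and 128 and 106 CPM with compound 6 (log2 difference −1.26 ± 0.18, adjusted p = 0.0158). ITIH3 was not in the list of bile acid and FXR genes. Its window was the only one among the called genes with an exact inverted repeat of the FXR half-site, searched as GGTCANTGACC on both strands, which occurred in 2 of the 10033 windows. The windows of KNG1, SLC51A and SLC51B held no such match, so this exact search cannot tell whether a gene lacks the element. The match is a description of the letters and not evidence of binding. The stretch lies at chr3:52794711-52794761 on the plus strand, the repeat begins 65 bases before the start and is in capitals.
ITIH3: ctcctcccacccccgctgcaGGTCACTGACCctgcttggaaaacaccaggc

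Of 25 plasma protein genes tested, 3 were lower with compound 6 (0.522% of all genes tested) and 0 higher (0.507%). The lower genes were the 3 chains of fibrinogen, the clotting protein. FGA was at 530.4 and 509.99 CPM with DMSO, 728 and 781 CPM with compound 5 and 384 and 305 CPM with compound 6 (log2 difference −1.13 ± 0.15, adjusted p = 0.0114). FGB was at 172 and 200.3 CPM, 254 and 285 CPM and 140.1 and 129.8 CPM (log2 difference −0.997 ± 0.12, adjusted p = 0.0104), and FGG was at 954 and 1072 CPM, 1225 and 1373 CPM and 719.8 and 661 CPM (log2 difference −0.91 ± 0.12, adjusted p = 0.0118). In all 3 chains compound 5 lay above DMSO and compound 6 below it, with no overlap. Only FGB with compound 5 passed the test against DMSO (log2 difference 0.53, adjusted p = 0.0301). The list median was −0.07 (−0.20 without compound 6 replicate 1 and 0.0045 without its replicate 2), and without compound 6 replicate 2 the list held 0 calls. Albumin (ALB) was at 18165 and 16818 CPM with compound 5 and 16683 and 14385 CPM with compound 6, a log2 difference of −0.17 (95% interval −0.47 to 0.13).

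The other genes among the 12 with the largest decrease were AOC4P, A1BG, SLC6A12 and STK32C. The pseudogene AOC4P was at 13 and 15.9 CPM with compound 5 and 4.12 and 2.56 CPM with compound 6 (log2 difference −2.12 ± 0.31, adjusted p = 0.0158). The plasma glycoprotein A1BG was at 13.6 and 17.9 CPM and 4.61 and 4.93 CPM (log2 difference −1.72 ± 0.21, adjusted p = 0.0104), and it overlaps a transcript on the same strand that was also called. The betaine and GABA transporter SLC6A12 was at 12.2 and 9.16 CPM and 3.43 and 3.79 CPM (log2 difference −1.55 ± 0.25, adjusted p = 0.0241). The kinase STK32C was at 22.8 and 27.6 CPM with DMSO, 59.3 and 85.8 CPM with compound 5 and 24.5 and 29.3 CPM with compound 6 (log2 difference −1.43 ± 0.19, adjusted p = 0.0114).

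**Figure D3:**
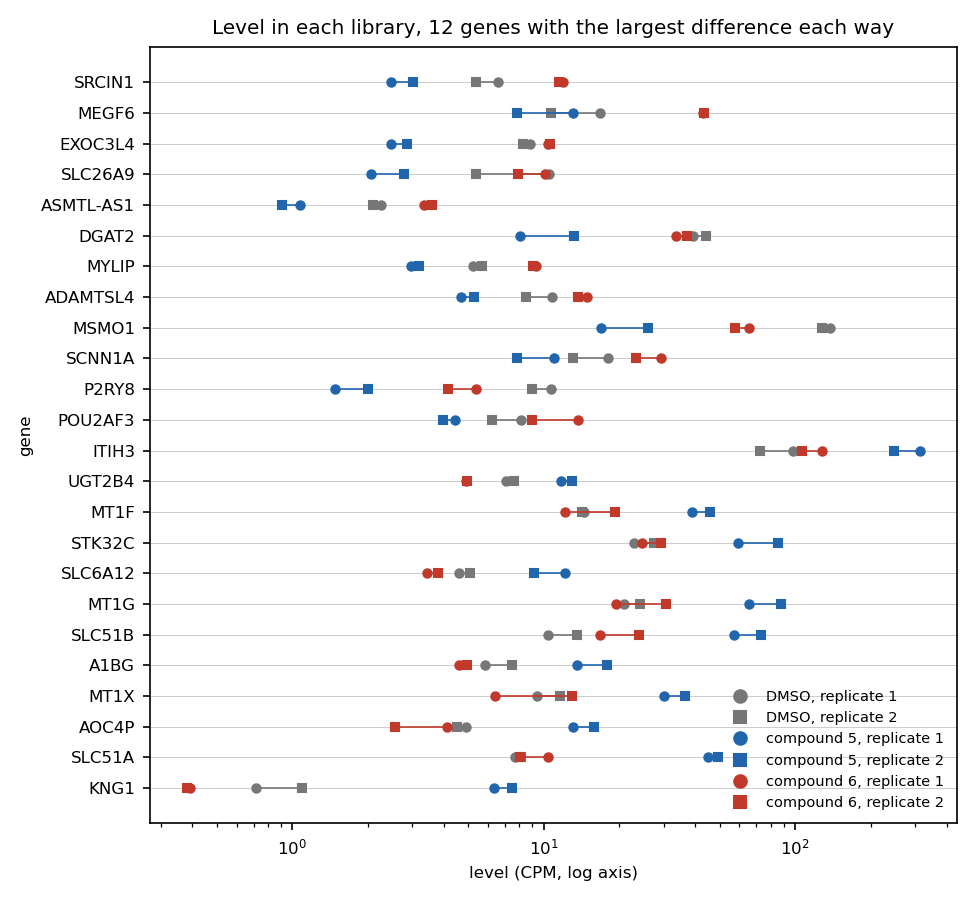
Level in each DMSO, compound 5 and compound 6 library (CPM, log axis) of 24 genes, the 12 furthest up and the 12 furthest down with compound 6 relative to compound 5 among called genes of at least 1 CPM. The genes were also chosen to have no overlap between the libraries of the 2 compounds, so the red and blue lines of a gene cannot meet. A line joins the 2 libraries of a group, and SLC51A runs from 45.2 and 49.2 CPM with compound 5 to 10.4 and 8.05 CPM with compound 6.

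Among called genes with a mean of at least 1 CPM, the largest increases with compound 6, apart from the lipid genes above, were in genes of varied function at low levels. SRCIN1 (chr17:38530016-38605930, minus strand), an inhibitor of the kinase SRC, was at 6.56 and 5.36 CPM with DMSO, 2.47 and 3.02 CPM with compound 5 and 12 and 11.5 CPM with compound 6 (log2 difference 2.08 ± 0.20, adjusted p = 0.00419). Compound 5 lay below DMSO and compound 6 above it, with no overlap. MEGF6, a protein with EGF-like repeats, was at 16.7 and 10.7 CPM, 13.1 and 7.80 CPM and 43.1 and 43.2 CPM (log2 difference 2.07 ± 0.26, adjusted p = 0.0113), and here compound 6 was the one called against DMSO (log2 difference 1.66, adjusted p = 0.0392). EXOC3L4 was at 8.81 and 8.29 CPM, 2.47 and 2.85 CPM and 10.4 and 10.6 CPM (log2 difference 1.97 ± 0.27, adjusted p = 0.0117).

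The anion transporter SLC26A9 was at 10.5 and 5.36 CPM with DMSO, 2.06 and 2.79 CPM with compound 5 and 10.1 and 7.86 CPM with compound 6 (log2 difference 1.87 ± 0.35, adjusted p = 0.0425). SCNN1A, a subunit of the epithelial sodium channel, was at 17.9 and 13.1 CPM, 10.9 and 7.85 CPM and 29.1 and 23.2 CPM (log2 difference 1.49 ± 0.21, adjusted p = 0.0149). The extracellular matrix protein ADAMTSL4 was at 4.69 and 5.29 CPM with compound 5 and 14.9 and 13.7 CPM with compound 6 (log2 difference 1.51 ± 0.21, adjusted p = 0.0117). For SLC26A9 the compound 6 libraries lay within the range of DMSO, and for SCNN1A and ADAMTSL4 above it. The antisense transcript ASMTL-AS1, the receptor P2RY8 and POU2AF3 completed the 12, with log2 differences of 1.81, 1.43 and 1.43 (adjusted p = 0.0363, 0.0475 and 0.0332). The library kit keeps the strand of the RNA, but the strand setting of the counting is not given in the sources used here, so how well ASMTL-AS1 was separated from its partner ASMTL is uncertain.

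Further genes higher with compound 6 were named after their values had been seen. The laminin receptor BCAM was at 206 and 197 CPM with DMSO, 65.3 and 69.1 CPM with compound 5 and 153 and 155 CPM with compound 6 (log2 difference 1.20 ± 0.12, adjusted p = 0.00490). The laminin chain LAMA5 was at 232 and 222 CPM, 119.5 and 129.7 CPM and 231 and 187 CPM (log2 difference 0.75 ± 0.12, adjusted p = 0.0241) and was the 1 called gene of 12 integrins and laminins. HSPG2, the basement membrane proteoglycan perlecan, was at 36.4 and 30.6 CPM, 18 and 17.8 CPM and 54.5 and 40.3 CPM (log2 difference 1.40 ± 0.18, adjusted p = 0.0113). The 2 of the 68 genes called against DMSO for both compounds were HMGCS1 and the transporter SLC16A6. SLC16A6 was at 5.53 and 4.52 CPM with DMSO, 14.5 and 11.7 CPM with compound 5 and 25.8 and 26 CPM with compound 6. It was raised by either compound and more so by compound 6 (log2 difference 0.99 ± 0.15, adjusted p = 0.0160).

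A pair of called genes had too few counts for a size. The gene ENSG00000285953, which overlaps CYP51A1 and KRIT1, was at 0 in both compound 6 libraries, and the receptor gene IL21R was at 0 and 0.0569 CPM with compound 5 and 0.883 and 1.42 CPM with compound 6.

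Several lists of stress and growth response genes held few calls or none, beside 1.03% called of all genes tested. Of 25 genes of the amino acid and integrated stress response tested 0 were called, at a median log2 difference of −0.13 (0.11 without compound 6 replicate 1 and −0.35 without its replicate 2), with medians of 0.996 and 0.817 against DMSO for compounds 5 and 6. SLC7A5, an amino acid transporter and the most abundant of them, had a log2 difference of −0.23 (95% interval −0.50 to 0.05). Of 25 NRF2 targets, ABCC3 was the 1 called gene (with 1 lower gene added by the block), and FTL, the ferritin light chain, had a log2 difference of 0.07 (95% interval −0.18 to 0.31). Among 18 genes of the ERK response, 18 immediate early factors and 20 p53 targets 0 were called, at medians of −0.17, −0.38 and 0.09. With 1 library left out at a time the medians ran from −0.28 (without compound 6 replicate 2) to −0.06 (without compound 5 replicate 1) for the ERK response and from −0.63 to −0.13 (without compound 5 replicate 2 and 1) for the immediate early factors, and the p53 median was −0.0016 without compound 5 replicate 2. GDF15, a secreted stress factor, was at 3005 and 1723 CPM with compound 5 and 871 and 1657 CPM with compound 6, and the wide interval of its log2 difference (−1.67 to −0.14) came with replicates that lay far apart.

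Of all genes tested 1.03% were called, a share at which 0 calls in a short list says little. Genes of DNA replication (0 called of 39, median −0.08) and mitosis (0 of 36, median −0.13) gave no calls. Their medians changed sign with the library left out, from −0.32 to 0.20 for replication and from −0.39 to 0.15 for mitosis without compound 5 replicate 1 or replicate 2, respectively. In the main fit 27 replication and 34 mitosis genes had a log2 difference below 0. Both lists lay below DMSO with either compound, at medians of −0.41 with compound 5 and −0.53 with compound 6 for replication. For mitosis these medians were −0.40 and −0.55. MCM7, a subunit of the replicative helicase, was at 278 and 402 CPM with compound 5 and 290.4 and 309 CPM with compound 6 (log2 difference −0.18, 95% interval −0.55 to 0.18). TOP2A, the topoisomerase of dividing cells, was at 266 and 377 CPM and 273 and 281 CPM (log2 difference −0.22, 95% interval −0.60 to 0.17).

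The 13 mitochondrially encoded genes gave 0 calls, although their median log2 difference was 0.62 and both compound 6 libraries lay above both compound 5 libraries in 12 of them (25.1% of all genes tested). With the replicate block 10 of the 13 were called higher with compound 6. MT-CO1, a subunit of cytochrome c oxidase, was at 19018 and 14225 CPM with DMSO, 12036 and 10021 CPM with compound 5 and 19136 and 16101 CPM with compound 6 (log2 difference 0.68 ± 0.17, adjusted p = 0.0886, and 0.00398 with the block). These genes took 3.60% and 3.09% of the counts with compound 5, 5.80% and 4.77% with compound 6 and 5.78% and 4.50% with DMSO. The compound 5 libraries had the lowest shares, and the part of this share in the other differences was not tested.

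**Figure D4:**
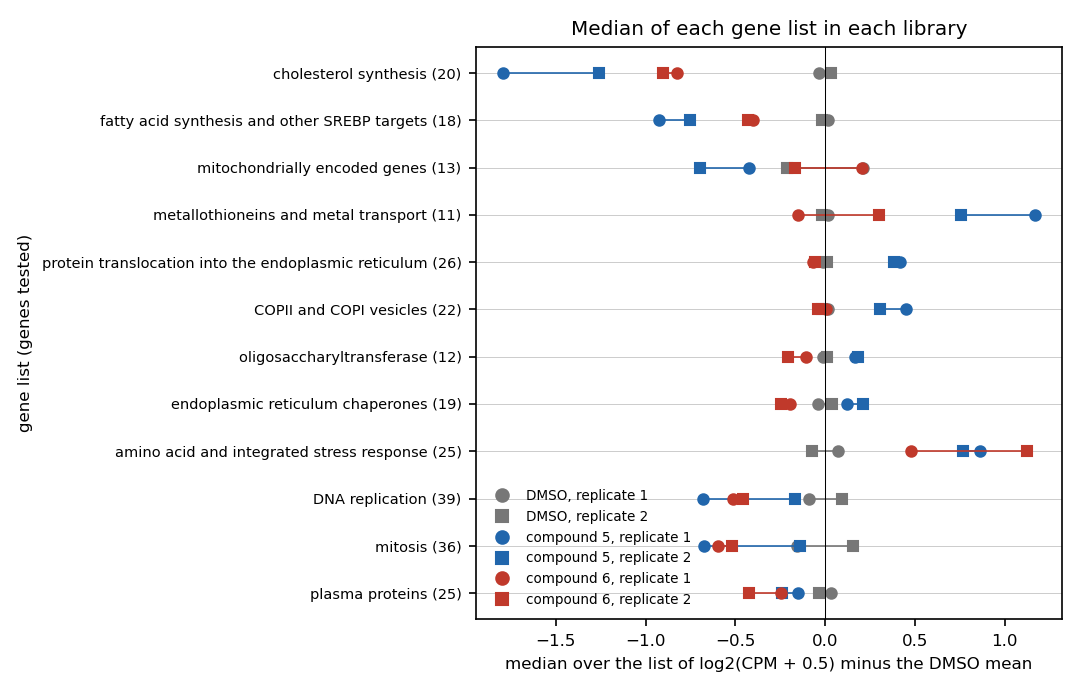
Median over each gene list of log2(CPM + 0.5) minus the DMSO mean, in each DMSO, compound 5 and compound 6 library, with the number of tested genes beside the list name and a line joining the 2 libraries of a group. Cholesterol synthesis lies at −1.80 and −1.26 with compound 5 and at −0.82 and −0.91 with compound 6, while the blue and red lines overlap for DNA replication, mitosis and the amino acid and integrated stress response.

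The other lists had few calls or none, beside 1.03% called of all genes tested. Of 14 genes of fatty acid oxidation, 15 heat shock proteins, 8 EGF receptor family genes, 12 NF-kB and inflammatory genes, 14 YAP and TEAD targets, 12 TGF-beta and BMP targets, 40 genes of autophagy and lysosome and 18 of hypoxia and glycolysis, 0 were called by edgeR's quasi-likelihood test, with medians of −0.02, −0.34, −0.13, −0.02, −0.02, 0.18, −0.21 and −0.11. With the replicate block 2 NF-kB and inflammatory genes, 1 gene of fatty acid oxidation and 1 of autophagy and lysosome were lower with compound 6. All 15 heat shock genes and 31 of the 40 autophagy and lysosome genes had a log2 difference below 0. Both compound 6 libraries lay below both compound 5 libraries in 10 and 16 of them (24.3% of all genes tested) and above in 0 and 2 (25.1%). With 1 library left out the median ran from −0.46 to −0.14 for heat shock proteins (without compound 5 replicate 1 and 2), from −0.28 to −0.06 for autophagy and lysosome (without compound 5 replicate 2 and 1) and from −0.18 to −0.04 for hypoxia and glycolysis (without compound 6 replicate 1 and 2), and it was 0.11 for TGF-beta and BMP targets without compound 6 replicate 2. Near zero the sign of a median was not stable. Without compound 5 replicate 1 the median was 0.12 for the EGF receptor family and 0.10 for YAP and TEAD targets, without compound 5 replicate 2 it was 0.11 for fatty acid oxidation, and without compound 6 replicate 1 it was 0.01 for NF-kB and inflammatory genes. Of 13 AHR, PXR and CAR targets, POR, the electron donor of the cytochromes P450, was lower with compound 6, at 555 and 530.3 CPM with DMSO, 798 and 727 CPM with compound 5 and 496 and 545 CPM with compound 6 (log2 difference −0.55 ± 0.10, adjusted p = 0.0363). CYP1A1, a target of the AHR, was at 10.8 and 9.05 CPM and 15.5 and 23.2 CPM and missed the threshold (log2 difference 0.97 ± 0.21, adjusted p = 0.0631). Of 14 hepatocyte transcription factors NR0B2 was the 1 called gene, and HNF4A had a log2 difference of 0.23 (95% interval 0.00 to 0.46). Of 19 surface, S100 and annexin genes the lectin LGALS3 was called (0.71 ± 0.13, adjusted p = 0.0438), and the list median of 0.33 fell to −0.04 without compound 5 replicate 2. The chemokine CCL20 was at 746 and 449 CPM with compound 5 and 259.99 and 299 CPM with compound 6, and its adjusted p was 0.0526, or 0.0325 with the block.

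For most genes the comparison bounded the difference without resolving it. The 95% interval of the log2 difference lay within −1 to 1 for 10205 genes (76.2%) and within −0.5 to 0.5 for 35.9%, with a median half-width of 0.37. A gene that missed the threshold is thus not shown to respond alike to both compounds.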

How the data were processed

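The authors ran FastQC (version 0.12.0), quantified the reads with Salmon (version 1.5.0) against GENCODE transcripts on GRCh38 and summarized them to genes with tximeta. The deposited estimated counts were whole numbers without normalization for 60230 genes and 8 samples, and rounding them changed nothing. The authors tested each compound with DESeq2 (version 1.38.3), whose results were not used here.

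Counts were analysed in R (version 4.3.3) with edgeR (version 4.0.16): TMM normalization, a minimum count of 10 in filterByExpr, and its quasi-likelihood F test from a single model of the 8 libraries with a mean per group and no block, with Benjamini-Hochberg adjustment over 13400 genes at 0.05. The common biological coefficient of variation was 0.122. CPM values use the TMM library sizes. An exact permutation test of 2 against 2 cannot go below p = 0.333 and was not run. Only 1 pair of compounds was compared. The scripts were tested on simulated data.

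Named genes are the 12 called genes with the largest difference each way (mean of at least 1 CPM, libraries not overlapping), up to 4 called members, the highest, lowest and most abundant member of each list, and CYP2C19. Other genes named, among them those of the added lists, FDFT1, TM7SF2, EBP, NPC1L1 and MT2A, were chosen after their values were seen. Not every gene the rule names is reported here. The members, the 30 lists and the 5 lists added later were chosen with earlier results of these data known. Lists are described by counts and medians, without a set test.

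The labels give replicates a day, which was taken as the source of their pairing. Across 13400 genes, which are not independent, the difference between replicates 2 and 1 correlated by −0.05 between compounds 5 and 6 and by 0.23 and 0.12 between DMSO and compounds 5 and 6. Alternatives were DESeq2 (version 1.42.0), the block, fits of 4 or 6 samples, DESeq2 size factors, other filters, thinning to the smallest total with a fixed seed, and leaving out each library. Replicates differed by more than counting noise (mean chi-square per gene 8.43, 19.1 and 8.20 for DMSO, compound 5 and compound 6, where 1 would be noise alone). Promoter sequences are from RefSeq (GRCh38.p14). Figures were made with matplotlib (version 3.10.9) in Python (version 3.11.15).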

Additional observations from a re-analysis of the deposited data

How the results depend on the processing

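Of the 138 genes called between compounds 6 and 5, 68 were higher with compound 6 and 70 lower. DESeq2's Wald test called 379 (179 and 200), of which 137 were shared, the replicate block 269 (139 and 130) with all 138 shared, and a fit of only the 4 compared samples 49 (20 and 29) with 47 shared. Without a filter on low counts 990 genes were called (559 and 431), and with at least 10 counts in every sample 121 were higher, out of 207 in all. The same 4 samples with the block, an alternative chosen after seeing the data, gave 133 (72 and 61), of which 91 were shared. Leaving out 1 library at a time gave between 0 and 102 calls, between 0 and 43 higher and between 0 and 59 lower, and the 0 came from leaving out compound 6 replicate 1. DESeq2 size factors (140), the 6 samples with DMSO (105) and thinning (148) stayed within 1.5 times the count. All 138 genes kept their direction under every alternative that tested them. In the fit of all 8 samples the block took the call from none of them. With 2 libraries per compound, leaving out 1 leaves a lone sample that is assumed to vary like the other groups, and without replicate 1 or 2 of every group only values could be given. The endothelial marker list, with VWF as its only tested gene, gave no value in the fits of 4 samples or with at least 10 counts in every sample. The causes of these changes were not tested.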
